A study of Homo sapiens with 36 samples.

Results

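The complement and coagulation genes described here encode the plasma proteases, cofactors, inhibitors and pore-forming proteins that liver cells secrete. They were chosen by name from a list of 41 symbols, and a gene was kept when its summed count over all 36 libraries reached 360. Of the 41 symbols, 39 had a row in the count table of 18932 genes, and 35 of these reached the minimum. C6 (225 reads in all libraries together), PLG (171 reads), C9 (2 reads) and F9 (1 read) fell below it, and C4A and C4B were not analysed here. The genes nearest above the minimum were KLKB1 with 375 reads and F13B with 457 reads. The fits kept only genes with enough counts, which left 34 of the 35 genes at 24 h, where KLKB1 dropped out, and all 35 at 6 h and in the joint fit of both times.

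Coagulation is a chain of proteases in which factor XII and prekallikrein start the contact pathway, factor VII starts the tissue factor pathway, and both meet at factor X, which with factor V turns prothrombin into thrombin. Thrombin cuts fibrinogen into fibrin, antithrombin and protein C hold the chain back, and plasmin dissolves the clot. Complement is a related chain of serine proteases that starts from C1, from mannose-binding lectin or from C3 itself, and ends in the membrane attack complex built from C5 to C9. Hepatocytes make most of these proteins, and many of the genes are known targets of the hepatic factors HNF1, HNF4 and C/EBP and of acute-phase signals.

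The data were RNA-seq counts of HepG2 cells, an established human hepatoma line, which serve as a model of hepatocytes but carry the changes of a tumour line. Cells received vehicle (Ctrl), the n-3 fatty acid docosahexaenoic acid at 50 µM (DHA), the short-chain fatty acid propionate at 70 µM (PRO), the phenolic acid protocatechuic acid at 20 µM (PCA), DHA + PRO or DHA + PCA, for 6 h or 24 h, with 3 libraries in each of the 12 groups. All cells, Ctrl included, were kept in DMEM without serum, with albumin, ethanol and dimethyl sulfoxide as vehicle, and each library held pooled RNA of 3 culture replicates. The 9 libraries of Ctrl, PRO and PCA at one time are called without DHA below, and the 9 of DHA, DHA + PRO and DHA + PCA are called with DHA. Between 6 h and 24 h the time in serum-free medium and the time since seeding changed together, and these cannot be told apart. Among the libraries numbered SM1810 to SM1833, those of 6 h came before those of 24 h, and the same index sequences were used at both times. Any difference in library preparation or sequencing between the times therefore cannot be told apart from culture time.

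Total counts ran from 4659744 to 42326734 per library with a median of 7034006.5, and the 35 genes took between 1.265% and 1.681% of them. Replicate 2 of DHA + PRO at 24 h was the deepest library, 6.22 times the median of the other libraries at 24 h. The 8 hepatic markers were found in every library and summed to between 50700 and 67470 CPM (counts per megaread, on library sizes scaled by TMM). Markers of endothelial cells summed to at most 1.17 CPM, platelet markers to at most 2.67 CPM and fibroblast and stellate markers to at most 28.3 CPM, with medians at 6 h and 24 h of 0.137 and 0.335, 0.790 and 1.61, and 10.4 and 17.1 CPM. The leukocyte and macrophage list summed to between 803 and 2603 CPM, nearly all of it lysozyme (LYZ, mean 1461 CPM). Of its other members, PTPRC and CSF1R were at 0 in more than 18 libraries, CD14 had at most 3.17 CPM, and CD68 had 32.7 to 71.5 CPM. The summed level of this list had a median of 913 CPM at 6 h and 2053 CPM at 24 h, the hepatic list one of 54280 CPM and 61450 CPM. The part of these lists in the differences between times below was not tested. In bulk RNA a smaller number of cells of one kind and less RNA in each cell cannot be told apart.

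Levels of different genes were compared only as RPKM, CPM divided by the counted length of the gene in kilobases. In Ctrl at 24 h, 12 of the 35 genes exceeded 100 RPKM, 11 lay between 10 and 100, 6 between 1 and 10, and 6 below 1. A2M, a broad protease inhibitor, stood first with 1290 RPKM ± 137 (SD, n = 3). It was followed by the fibrinogen chain FGG with 785 ± 20.1, complement C3 with 530 ± 34.2 and the fibrinogen chain FGA with 459 ± 10.1, and the libraries of these 4 genes did not overlap. SERPINF2 (antiplasmin, 225 ± 11.8 RPKM), SERPIND1 (heparin cofactor II, 222 ± 3.73), F2 (prothrombin, 214 ± 18.1) and VTN (vitronectin, 196 ± 9.37) came next, and neighbours among these 4 overlapped. The other genes over 100 RPKM were PROC (protein C), FGB, C2 and CFI (factor I, which cleaves C3b). At the low end KNG1 (kininogen), C1R, C8B, F13B, MASP1 and KLKB1 (prekallikrein) lay between 0.526 and 0.910 RPKM and overlapped with their neighbours.

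**Figure D1:**
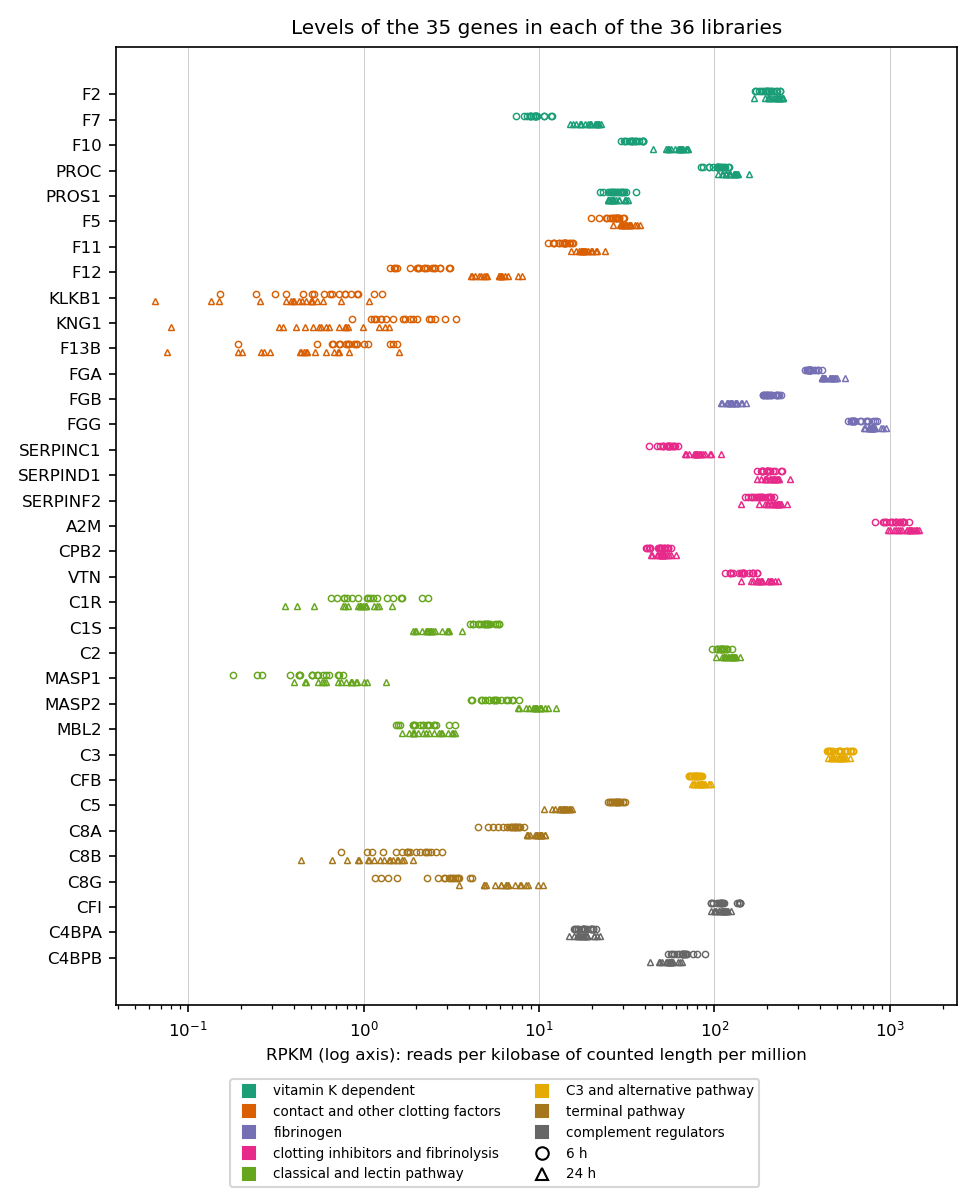
Levels of the 35 genes in RPKM on a log axis, with 1 circle for each library at 6 h and 1 triangle for each library at 24 h, coloured by role. A2M, FGG, C3 and FGA sit highest, and KNG1, C1R, C8B, F13B, MASP1 and KLKB1 sit lowest with the widest scatter.

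Neighbours in a pathway were present at very different levels in Ctrl at 24 h. C2 (121 RPKM), which C1s cleaves, stood far above both of the proteases of the C1 complex, C1S (2.47 RPKM) and C1R (0.887 RPKM). In the contact pathway F11 (21.7 RPKM) exceeded F12 (5.40 RPKM), KNG1 (0.910 RPKM) and KLKB1 (0.526 RPKM). Of the terminal components C5 reached 14.6 RPKM, C8A 9.98 and C8G 7.46, but C8B, whose product joins C8A and C8G in the C8 complex, only 0.874 RPKM. The 6 genes below 1 RPKM had the widest spread between replicates, with a median coefficient of variation within groups from 29.4% for MASP1 to 41.5% for KNG1. In the other 29 genes it ran from 4.89% (CFB) to 26.1% (C8G). C8G, F12 (19.9%), MBL2 (19.7%) and C1S (13.3%), all between 1 and 10 RPKM, exceeded every gene over 10 RPKM, where F7 was highest with 12.8%. Over 10 RPKM the spread was not in the order of the levels, with 11.95% for A2M and 6.39% for C5.

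The genes differed between the libraries of 6 h and 24 h, where culture time and any difference in library handling cannot be told apart. Without DHA, 23 of 35 genes were called, 17 higher and 6 lower at 24 h than at 6 h, by edgeR's quasi-likelihood test. A gene is named called below where its adjusted p did not exceed 0.05 and its average log2 CPM was over 0. Among all 12046 genes tested 48.4% were called, 24.3% higher and 24.1% lower. With DHA, 23 of 35 were called, 15 higher and 8 lower, where 46% of all genes were called, 22.9% higher and 23% lower. A total of 20 genes were called in both comparisons, 14 higher and 6 lower, each in the same direction. The median log2 fold change of the 35 genes was 0.17 without DHA and 0.12 with DHA, and that of all genes was -0.0073 and -0.0064. The 9 genes called in neither comparison were C3, F2, PROS1 (protein S), SERPIND1, CPB2, MBL2, CFI, C4BPA and C1R. Where a gene was called in only 1 of the comparisons, the difference between its 2 values was itself not called, as for all 35 genes. These fits used no block for the replicate number. With that number as a block, 28 genes were called without DHA and 26 with DHA, among them all 23 of each comparison.

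**Figure D2:**
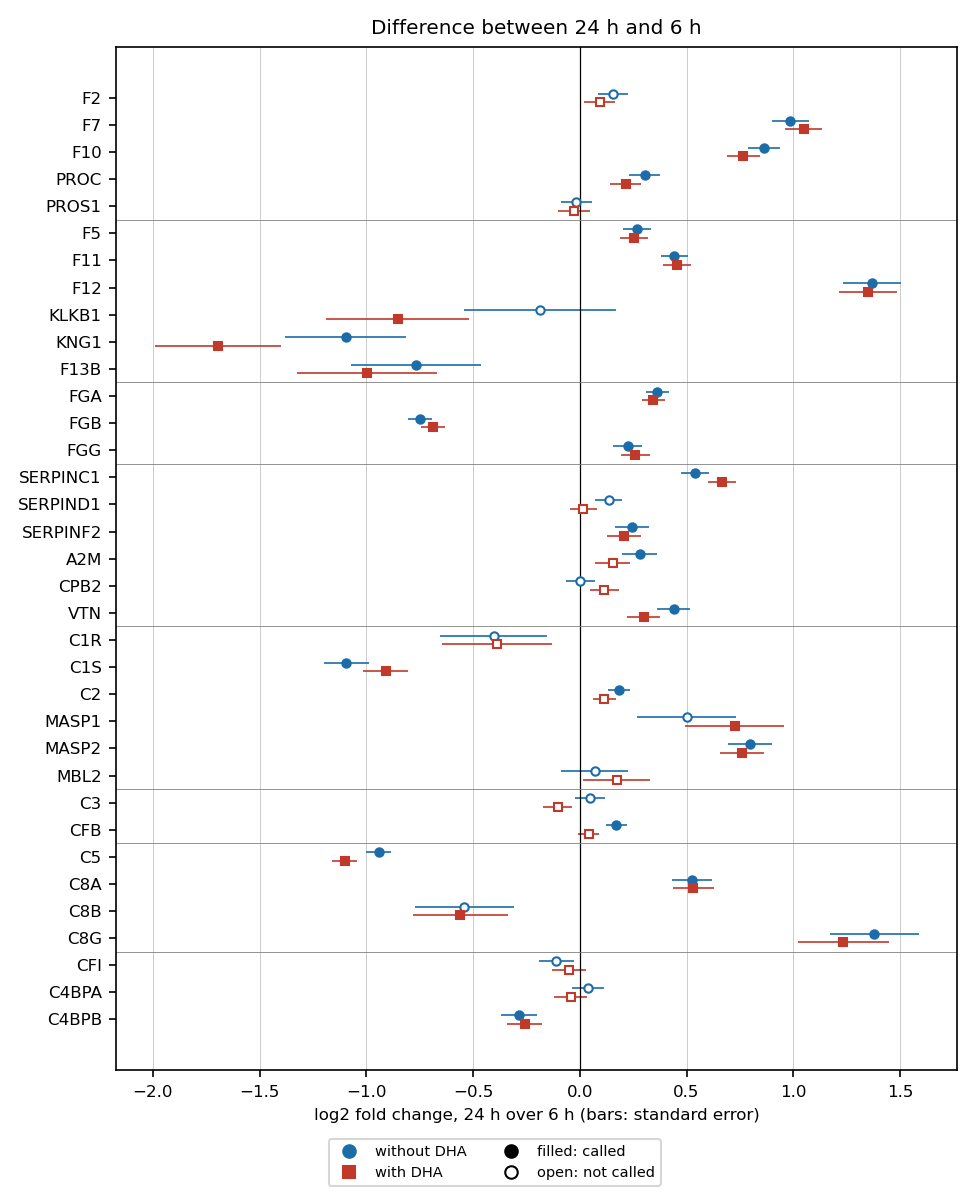
Log2 fold change of each gene between 24 h and 6 h, without DHA (blue circles) and with DHA (red squares), with the standard error as bars and filled symbols for genes called. F12, C8G, F7 and F10 lie farthest to the right. KNG1, C1S and C5 lie farthest to the left without DHA, and with DHA F13B lies farther left than C1S. The 2 comparisons lie close together for most genes.

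The sign of the change was the same in all 6 treatments for 17 genes that were higher and 6 that were lower at 24 h, and 12 genes had mixed signs. This count was not made for all genes, so it does not set these genes apart from the others. The library numbers in the sample titles fell into 2 runs, which are called library series here. The smaller series held the last replicate of every group and, besides these, only replicate 2 of DHA + PRO at 6 h. The series are therefore close to a split by replicate number and not a separate check. All 23 genes called in each comparison kept their direction within both series. Within single replicate numbers SERPINF2 without DHA and FGG with DHA did not keep it in every number.

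Of the vitamin K dependent factors, F7 and F10 rose the most. F7 (factor VII, hg19 chr13:113760102-113774995) had 25.2 to 36.1 CPM at 6 h without DHA (median 29.1) and 48.0 to 68.6 CPM at 24 h (median 58.2). With DHA it had 22.5 to 35.6 CPM (median 28.9) at 6 h and 45.9 to 66.1 CPM (median 59.8) at 24 h. Every library at 24 h lay above every library at 6 h in both comparisons. The log2 fold change was 0.99 ± 0.085 (SE, adjusted p = 1.33e-11) without DHA and 1.05 ± 0.086 with DHA (adjusted p = 4.13e-12). F10 (factor X) lies 2.12 kb downstream of F7 on the same strand, at chr13:113777113-113803843. Its level moved from 44.8 to 60.4 CPM (median 51.7) at 6 h to 68.5 to 107 CPM (median 98.3) at 24 h without DHA, and from 50.2 to 60.4 CPM (median 54.1) to 81.0 to 109 CPM (median 95.9) with DHA. The times did not overlap for F10 either, and its log2 fold changes were 0.86 ± 0.076 and 0.77 ± 0.076. PROC, the precursor of the anticoagulant protein C, rose by 0.30 and 0.21 on the log2 scale, with overlapping libraries, and lay near 0 with the GC offset described below. F2 had log2 fold changes of 0.16 and 0.09 and PROS1 of -0.02 and -0.03, and neither was called.

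Among the contact and other clotting factors, F12 and F11 rose while KNG1 and F13B fell. F12 (factor XII, chr5:176829139-176836577) had 2.89 to 6.30 CPM at 6 h and 8.53 to 15.5 CPM at 24 h without DHA, and 3.18 to 6.39 CPM and 8.35 to 16.4 CPM with DHA. Its libraries did not overlap between times, and the log2 fold changes were 1.37 ± 0.14 and 1.35 ± 0.14. F11 (factor XI) rose by 0.44 ± 0.064 and 0.45 ± 0.065 on the log2 scale, from medians of 38.9 and 35.6 CPM to 51.9 and 48.2 CPM, and its libraries did not overlap between times. F5, the cofactor of factor X, rose by 0.27 and 0.26 on the same scale with overlapping libraries.

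KNG1, which encodes the kininogens that carry prekallikrein, fell from a median of 3.73 CPM (1.75 to 5.88) to 1.61 CPM (0.839 to 2.70) without DHA, and from 3.0 CPM (2.34 to 6.82) to 1.05 CPM (0.163 to 2.84) with DHA. The ranges of both times overlapped, and the log2 fold changes were -1.10 ± 0.28 (adjusted p = 0.00172) and -1.70 ± 0.30 (adjusted p = 1.64e-05). Within the 2 library series its difference with DHA was -2.18 and -0.58. F13B, the carrier subunit of factor XIII, had medians of 1.84 CPM at 6 h and 1.17 CPM at 24 h without DHA, and of 1.82 CPM and 0.980 CPM with DHA. The log2 fold changes were -0.77 ± 0.30 (adjusted p = 0.0367) and -1.0 ± 0.33 (adjusted p = 0.0129). The call without DHA was lost when any one of 10 single libraries was left out, with adjusted p between 0.0520 and 0.0903, and the call with DHA was lost without replicate 2 of DHA + PRO at 24 h (adjusted p = 0.0510). The 10 were replicates 2 and 3 of Ctrl, 1 and 3 of PRO and 1 and 3 of PCA at 24 h, and replicate 2 of Ctrl, replicate 2 of PRO and replicates 2 and 3 of PCA at 6 h. KLKB1 was called only with DHA (log2 fold change -0.85 ± 0.33, against -0.19 ± 0.36 without DHA), and the difference between these values was not called. Leaving out any one of 7 libraries ended the call of KLKB1 with DHA (adjusted p between 0.0558 and 0.141), namely replicate 1 of DHA, 2 and 3 of DHA + PRO and 1 of DHA + PCA at 6 h, and replicate 3 of DHA and 1 and 3 of DHA + PCA at 24 h.

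The 3 chains of fibrinogen, which are assembled into 1 protein, did not move in the same direction. FGA (alpha chain) and FGG (gamma chain) rose, and FGB (beta chain) fell. The genes lie together on chromosome 4 of hg19, FGB at chr4:155484132-155493915 on the plus strand, FGA at chr4:155504280-155511897 and FGG at chr4:155525286-155533902 on the minus strand, with gaps of 10.4 kb and 13.4 kb. FGA had 1205 to 1418 CPM (median 1286) at 6 h and 1490 to 1832 CPM (median 1661) at 24 h without DHA, and 1238 to 1489 CPM (median 1282) and 1490 to 2020 CPM (median 1657) with DHA. FGB had 651 to 791 CPM (median 697) at 6 h and 382 to 460 CPM (median 424) at 24 h without DHA, and 665 to 822 CPM (median 711) and 377 to 520 CPM (median 458) with DHA. Every library of FGA at 24 h lay above, and every library of FGB below, all libraries at 6 h, and FGB was lower in all 6 treatments.

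The log2 fold change of FGB was -0.75 ± 0.056 (adjusted p = 4.86e-13) without DHA and -0.69 ± 0.056 (adjusted p = 3.64e-12) with DHA. That of FGA was 0.36 ± 0.055 and 0.34 ± 0.055. FGG had overlapping libraries, medians of 1037 and 1051 CPM at 6 h and 1268 and 1328 CPM at 24 h, and log2 fold changes of 0.22 ± 0.070 and 0.26 ± 0.070. As a ratio of RPKM, FGB over FGA had a median of 0.592 at 6 h (0.537 to 0.610) and 0.264 at 24 h (0.244 to 0.320) without DHA, and of 0.584 (0.558 to 0.653) and 0.288 (0.241 to 0.332) with DHA. FGG over FGA had medians of 1.80 and 1.73 without DHA and 1.83 and 1.84 with DHA. The ratios between chains rest on counted lengths of 3451 bp for FGB, 3655 bp for FGA and 1661 bp for FGG. Within the 2 library series FGB differed by -0.79 and -0.67 without DHA and by -0.74 and -0.62 with DHA.

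The 250 bases before the RefSeq start of each fibrinogen chain are shown because these neighbouring genes moved in opposite directions. They were read from RefSeq on GRCh38.p14, at chr4:154590743-154590992 (minus strand) for FGA, chr4:154562730-154562979 (plus strand) for FGB and chr4:154612657-154612906 (minus strand) for FGG. Capitals mark the letters GTTAAT, the half-site of HNF1, and TTGCNNAA, a form of the C/EBP site, on either strand.
FGA: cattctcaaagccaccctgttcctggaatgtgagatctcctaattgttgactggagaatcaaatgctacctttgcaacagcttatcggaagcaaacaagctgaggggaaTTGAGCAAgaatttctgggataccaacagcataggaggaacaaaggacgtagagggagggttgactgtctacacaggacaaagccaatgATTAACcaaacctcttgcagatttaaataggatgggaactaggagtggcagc
FGB: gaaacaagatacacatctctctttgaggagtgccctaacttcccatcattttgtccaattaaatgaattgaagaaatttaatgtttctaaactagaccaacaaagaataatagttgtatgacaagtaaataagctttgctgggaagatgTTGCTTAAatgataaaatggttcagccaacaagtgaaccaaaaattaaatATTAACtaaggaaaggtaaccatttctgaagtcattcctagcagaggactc
FGG: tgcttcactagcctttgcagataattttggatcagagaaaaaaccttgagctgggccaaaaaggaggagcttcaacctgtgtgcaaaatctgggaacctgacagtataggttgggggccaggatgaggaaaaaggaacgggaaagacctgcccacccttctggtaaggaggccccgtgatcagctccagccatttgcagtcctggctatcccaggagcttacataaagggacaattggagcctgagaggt

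FGA and FGB, which moved in opposite directions, each held 1 match to both patterns, with the HNF1 half-site starting at base 199 and 200 and the C/EBP pattern at base 110 and 150, counted from 1 at the left, and FGG held neither. The letters of FGB were also poorer in GC (33.2%) than those of FGA (45.2%) and FGG (50.8%). A promoter was at hand for 29 of the 35 genes. GTTAAT was found in 7 of them (24.1%) and in 6.22% of all 27305 promoters, TTGCNNAA in 8 (27.6%) and in 9.13% of all, and CAAAGNNCA, a core of the HNF4 site, in 3 (10.3%, namely C8A, SERPIND1 and VTN) and in 4.43% of all. A match or its absence in this window is a description of the letters only.

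The inhibitors of clotting and fibrinolysis that were called were all higher at 24 h. SERPINC1 (antithrombin, chr1:173872942-173886516) had 67.9 to 94.8 CPM (median 81.9) at 6 h and 108 to 134 CPM (median 125) at 24 h without DHA. With DHA the values were 75.1 to 98.8 CPM (median 89.2) and 123 to 175 CPM (median 138). The times did not overlap, and the log2 fold changes were 0.54 ± 0.065 (adjusted p = 2.38e-08) and 0.67 ± 0.065 (adjusted p = 2.41e-10). VTN, an adhesive plasma protein, rose by 0.44 and 0.30 on the log2 scale. With the GC offset its values were 0.24 and 0.13, and it was still called. SERPINF2, the plasmin inhibitor, rose by 0.24 and 0.21, which the GC offset brought near 0. The call of SERPINF2 with DHA was lost without any one of 8 libraries (adjusted p between 0.0528 and 0.0853), namely replicates 2 and 3 of DHA, 1 of DHA + PRO and 2 of DHA + PCA at 6 h, and replicate 3 of DHA, 2 and 3 of DHA + PRO and 3 of DHA + PCA at 24 h. A2M was called without DHA (log2 fold change 0.28 ± 0.082) and not with DHA (0.16 ± 0.082). SERPIND1 and CPB2 (a carboxypeptidase that slows fibrinolysis) were not called, with values between 0.0023 and 0.14.

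In the classical and lectin pathways C1S fell and MASP2 rose. C1S, the protease of C1 that cleaves C4 and C2 (chr12:7167980-7178335), had 11.5 to 15.6 CPM at 6 h and 5.20 to 8.25 CPM at 24 h without DHA, and 11.0 to 16.1 CPM and 5.85 to 9.87 CPM with DHA. The libraries at 24 h lay below all libraries at 6 h, with log2 fold changes of -1.09 ± 0.11 and -0.91 ± 0.10. C1R, which activates C1s and lies 9.18 kb away on the other strand, had log2 fold changes of -0.40 ± 0.25 and -0.39 ± 0.26 that were not called, at medians of 2.41 and 2.45 CPM at 6 h. MASP2, the lectin pathway protease (chr1:11086580-11107296), had 11.6 to 17.1 CPM and 18.7 to 30.7 CPM without DHA, and 10.1 to 18.8 CPM and 21.6 to 25.3 CPM with DHA. Those libraries did not overlap, and the log2 fold changes were 0.80 ± 0.10 and 0.76 ± 0.10. MASP1 was called with DHA (0.73 ± 0.23) and not without (0.50 ± 0.23).

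C2 and CFB (factor B), homologous proteases of the classical and alternative C3 convertases, lie 0.269 kb apart on chromosome 6 on the same strand. Their log2 fold changes were 0.19 ± 0.052 and 0.17 ± 0.049 without DHA, where both were called, and 0.12 and 0.04 with DHA, where neither was. With the GC offset the calls of both genes without DHA were lost, at 0.05 for C2 (adjusted p = 0.349) and 0.07 for CFB (adjusted p = 0.122). C3, the protein on which the complement pathways meet, had medians of 2645 and 2671 CPM at 6 h and 2758 and 2631 CPM at 24 h, without and with DHA. Without the GC offset it was called in neither comparison, with values of 0.05 ± 0.070 and -0.10 ± 0.070. With the offset, edgeR's quasi-likelihood test did not call C3 without DHA (-0.13 ± 0.056, adjusted p = 0.0558). It called C3 lower at 24 h with DHA (-0.25 ± 0.056, adjusted p = 0.00029).

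The terminal components split. C5 (chr9:123714614-123812554), which starts the membrane attack complex and releases the C5a peptide, had 135 to 169 CPM (median 148) at 6 h and 70.5 to 84.2 CPM (median 78.3) at 24 h without DHA. With DHA it had 138 to 165 CPM (median 154) and 58.2 to 78.2 CPM (median 73.7). The times did not overlap, and the log2 fold changes were -0.94 ± 0.058 (adjusted p = 3.03e-15) and -1.10 ± 0.058 (adjusted p = 9.53e-17), the smallest p of the 35 genes in both comparisons. C8G (gamma subunit of C8) rose by 1.38 ± 0.21 and 1.23 ± 0.21 on the log2 scale, from medians of 2.68 and 2.71 CPM to 6.38 and 5.32 CPM. Its libraries overlapped between times without DHA and not with DHA. C8A (alpha subunit) rose by 0.52 ± 0.095 and 0.53 ± 0.096 on the log2 scale, from medians of 16.8 and 17 CPM to 23.4 and 24.2 CPM, without overlap.

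C8B (beta subunit) lies 11.0 kb from C8A on the opposite strand and had log2 fold changes of -0.54 ± 0.23 (adjusted p = 0.0542, not called) and -0.56 ± 0.22 (adjusted p = 0.0395, called). Its medians lay between 2.61 and 4.55 CPM. Leaving out any one of 10 libraries ended the call with DHA (adjusted p between 0.0517 and 0.105), namely replicates 1 and 3 of DHA, 2 of DHA + PRO and 2 and 3 of DHA + PCA at 6 h, and replicate 2 of DHA, 1 and 3 of DHA + PRO and 1 and 2 of DHA + PCA at 24 h. Leaving out any one of 9 libraries gave a call without DHA (lowest adjusted p = 0.0150). Among the regulators, C4BPB, the beta chain of the C4b-binding protein, fell by 0.29 and 0.26 on the log2 scale from medians of 64.3 and 62.2 CPM, with overlapping libraries. C4BPA, the alpha chain 4.27 kb further along the same strand, had log2 fold changes of 0.04 and -0.04, and CFI had -0.11 and -0.05. Neither was called.

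GC content moved with the difference between times across all genes. Over all genes, the median change on the log2 scale without DHA went from -0.16 in the lowest of 5 equal groups by GC content to 0.20 in the highest, and with DHA from -0.12 to 0.16. The called genes with the largest rises were rich in GC (F12 64.9%, C8G 63.9%, F10 59.4%, F7 57.2%). The 6 genes called lower in both comparisons were F13B (33.9%), FGB (41.6%), C5 (42.1%), KNG1 (44.8%), C4BPB (47.0%) and C1S (48.9%). In the group of lowest GC content FGG (40.2%) rose, and PROS1, CPB2, MBL2 and CFI were called in neither comparison. SERPINC1 (48.8%) rose at almost the GC content of C1S. The part of GC content in the change of single genes was not tested. With an offset that removes the dependence on GC content in each library, 19 genes were called without DHA (13 higher, 6 lower), against 52.5% of all genes, and 18 of them were among the 23. PROC, SERPINF2, C2, CFB and F13B were lost and C8B was gained. PROC and SERPINF2 came to between -0.03 and 0.03 in both comparisons. With DHA 23 were called (14 higher, 9 lower), against 52% of all genes. PROC and SERPINF2 were lost there, and C3 (lower) and CPB2 (higher) were gained. Among the genes named above, the values without DHA changed to 1.09 for C8G, 1.06 for F12, 0.80 for F7, 0.63 for F10, -0.65 for FGB and -0.85 for C5.

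**Figure D3:**
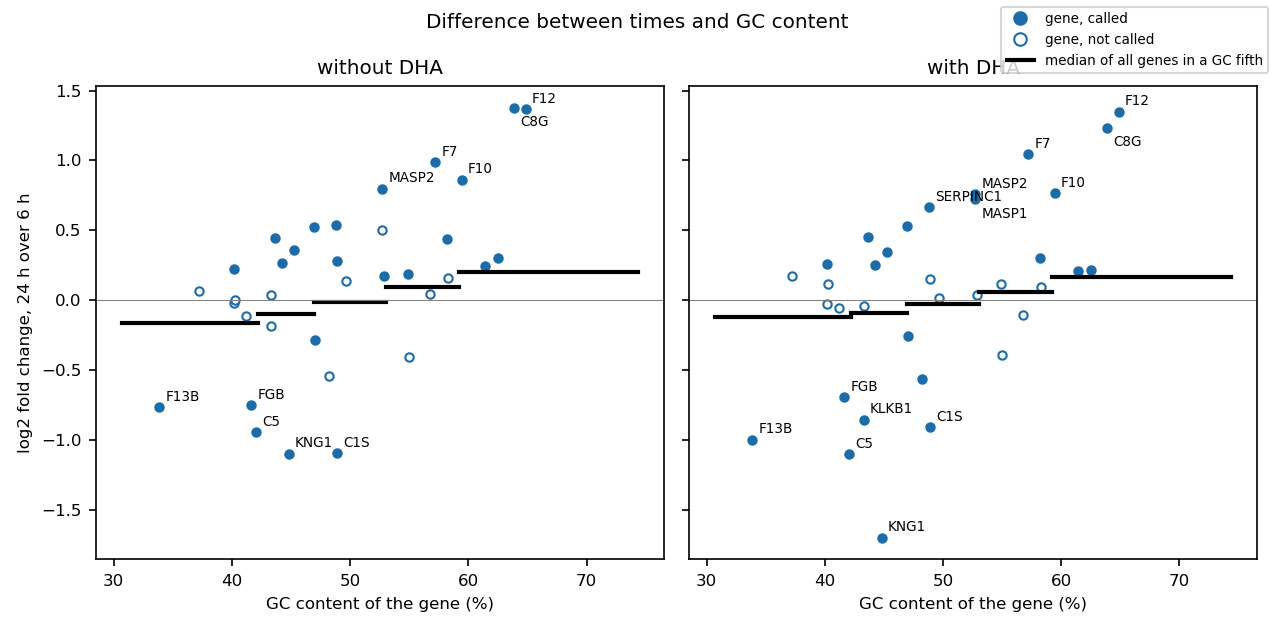
Log2 fold change between 24 h and 6 h against the GC content of each of the 35 genes in percent, without DHA (left) and with DHA (right), with filled points for genes called. Black bars are the medians of all genes in 5 equal groups by GC content, which rise from -0.16 to 0.20 on the left and from -0.12 to 0.16 on the right, and C8G, F12, C1S, C5 and KNG1 lie far outside them.

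By edgeR's quasi-likelihood test without a block, no treatment brought any of these genes past the threshold. None of the 34 genes was called at 24 h with DHA, PRO, PCA, DHA + PRO or DHA + PCA against Ctrl, where 0.193%, 0%, 0%, 0.395% and 0.286% of all genes were called. Unadjusted p-values under 0.05 were found for 1, 3, 0, 2 and 2 genes. At 6 h none of the 35 genes was called in any of the 5 treatments, against 0.0168%, 0%, 0%, 0.0168% and 0.0168% of all genes, and unadjusted p-values under 0.05 were found for 0, 0, 1, 0 and 0 genes. Pooled over the 3 treatments with DHA and the 3 without, 0 genes were called at 24 h (4 with an unadjusted p under 0.05) and 0 at 6 h (0 with an unadjusted p under 0.05), against 1.23% and 0.202% of all genes. The change of the pooled DHA effect between times was called for 0 genes and for 0% of all genes, with 0 of the 35 at an unadjusted p under 0.05. The share of all genes at the unadjusted limit is not given here, so the unadjusted counts are not read as a result about these genes. DESeq2's Wald test called 1 gene, SERPINC1, in the pooled comparison at 24 h and 0 in the other 12 comparisons of treatments. SERPINC1 was also the 1 gene called there in a fit with the replicate number as a block. With this block and the GC offset together, 4 genes were called there (SERPINC1, FGG and FGB higher, C3 lower), 1 with DHA (F11, lower) and 2 with DHA + PCA against Ctrl at 24 h (SERPINC1 and FGB, higher).

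**Figure D4:**
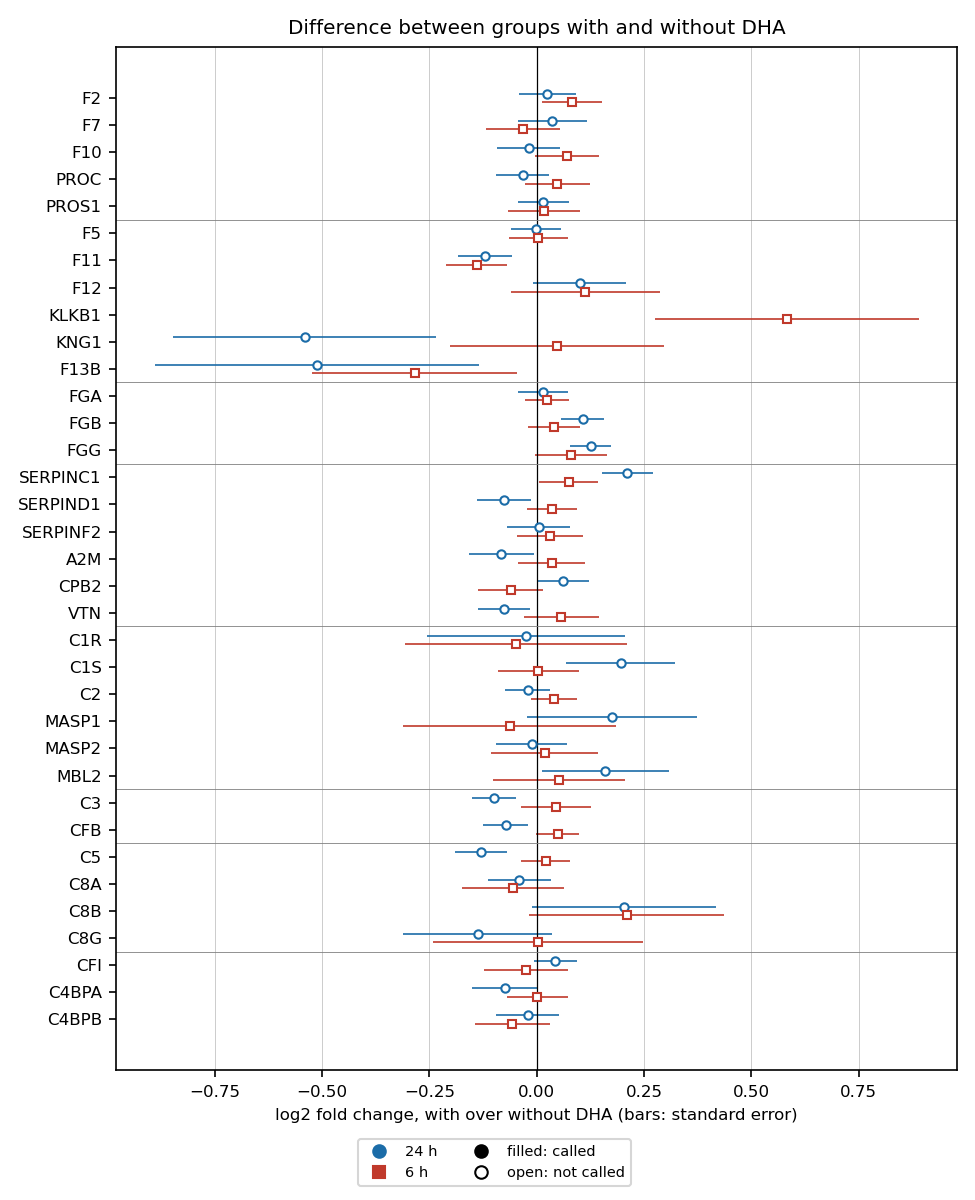
Log2 fold change of each gene between libraries with and without DHA at 24 h (blue circles) and 6 h (red squares), with the standard error as bars. All symbols are open because no gene was called in the fits shown, which used no block for the replicate number. SERPINC1, called at 24 h with that block, lies at 0.21 at 24 h, and KLKB1 has no value at 24 h.

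SERPINC1 came nearest to the threshold in the pooled comparison at 24 h. It had 108 to 134 CPM (median 125) without DHA and 123 to 175 CPM (median 138) with DHA, so that the groups overlapped. DHA + PCA (138, 150 and 175 CPM) held the highest library and the highest group mean. Replicate 1 of DHA + PRO, with 152 CPM, lay above the other libraries of DHA + PCA. The log2 fold change was 0.21 ± 0.059, with an adjusted p of 0.0859 by edgeR's quasi-likelihood test, and DESeq2's Wald test gave an adjusted p of 0.0411. The replicate block in edgeR gave an adjusted p of 0.0123, and the GC offset one of 0.0229. Over all alternatives the adjusted p ran from 0.000566 to 0.228. Within the 2 library series the difference was 0.20 and 0.22. The next genes by p were FGG (0.13 ± 0.047, adjusted p = 0.296), C5 (-0.13 ± 0.060, adjusted p = 0.475) and FGB (0.11 ± 0.050, adjusted p = 0.484). For the 23 genes over 10 RPKM the log2 fold changes lay between -0.13 and 0.21, and 2 standard errors on either side reached at most from -0.25 (C5) to 0.33 (SERPINC1). For genes of low level the estimates were wider, such as -0.54 ± 0.31 for KNG1.

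Against Ctrl at 24 h, F11 had the smallest p of the 34 genes with DHA, with PRO, with PCA and with DHA + PRO, and these comparisons share the same 3 Ctrl libraries. Ctrl had 58.1, 64.6 and 54.8 CPM, DHA 41.5, 50.4 and 47.0 CPM, PRO 51.9, 49.4 and 46.1 CPM, and DHA + PRO 48.4, 48.2 and 47.4 CPM. The Ctrl libraries lay above all libraries of these 3 treatments. The log2 fold changes were -0.35 ± 0.11 (adjusted p = 0.430) with DHA, -0.27 ± 0.11 (adjusted p = 0.788) with PRO, -0.20 ± 0.11 (adjusted p = 0.991) with PCA and -0.30 ± 0.11 (adjusted p = 0.422) with DHA + PRO. With DHA + PCA, SERPINC1 (0.33 ± 0.10, adjusted p = 0.295) and FGB (0.24 ± 0.087, adjusted p = 0.521) came first, followed by C8B (0.78 ± 0.40).

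The other genes among the 3 smallest p values at 24 h were F12 (0.35 ± 0.19) and KNG1 (-1.02 ± 0.56) with DHA, VTN (-0.23 ± 0.10) and SERPINF2 (-0.27 ± 0.13) with PRO, MASP2 (0.24 ± 0.14) and VTN (0.18 ± 0.10) with PCA, and C5 (-0.26 ± 0.10) and F13B (-1.19 ± 0.58) with DHA + PRO. At 6 h the 3 smallest p values in the pooled comparison belonged to F11 (-0.14 ± 0.071), KLKB1 (0.58 ± 0.31) and F13B (-0.28 ± 0.24), each with an adjusted p of 1.00. In single treatments at 6 h they belonged to F11, F5 and SERPIND1 with DHA, C8G, F13B and KNG1 with PRO, F13B, F12 and KLKB1 with PCA, F11, CPB2 and F2 with DHA + PRO, and C8G, SERPINF2 and F2 with DHA + PCA. The largest of these values were 0.79 ± 0.42 for C8G with PRO and 0.83 ± 0.40 for F13B with PCA. In the change of the DHA effect between times the first 3 were C5 (-0.16 ± 0.082), CFB (-0.13 ± 0.070) and C3 (-0.15 ± 0.098).

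**Figure D5:**
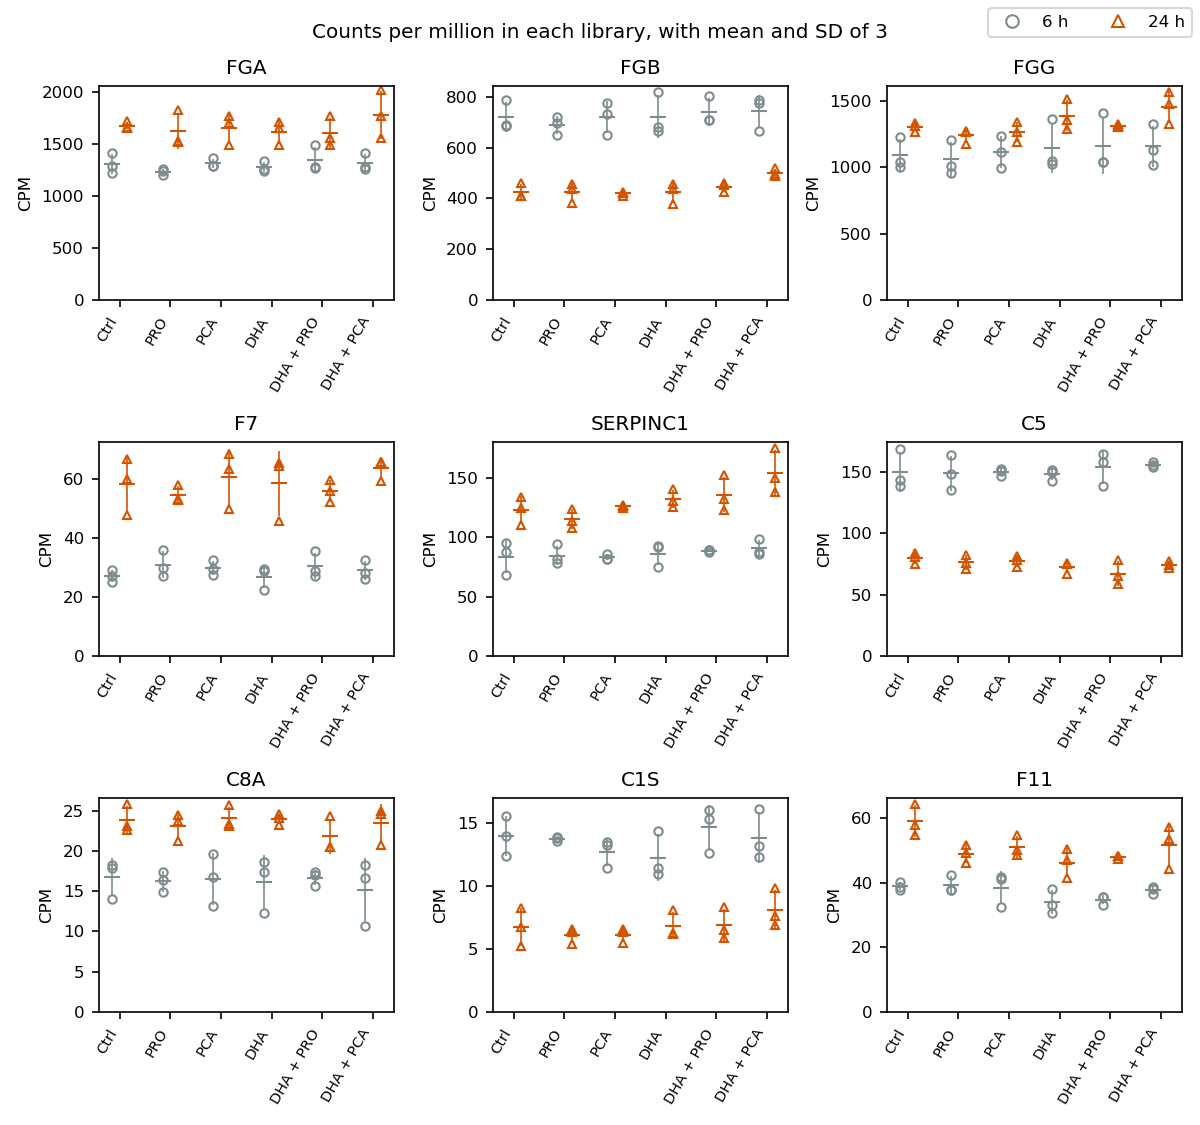
CPM of 9 genes in each library by treatment, at 6 h (grey circles) and 24 h (orange triangles), with the mean and SD of 3 libraries. FGB, C5 and C1S are lower and FGA, F7, SERPINC1 and C8A higher at 24 h in every treatment, and F11 at 24 h is highest in Ctrl.

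Other genes of the same pathways were taken from a list of 48, of which 27 passed the filter in the joint fit. Without DHA 13 of the 27 were called, 10 higher and 3 lower at 24 h, and with DHA 13 were called, 9 higher and 4 lower, shares near the 48.4% and 46% of all genes. PROZ, the protein Z cofactor that directs an inhibitor to factor X, rose by 1.05 and 1.03 on the log2 scale, HGFAC, a protease related to factor XII, by 0.99 and 1.07, SERPINA1 (antitrypsin) by 0.70 and 0.65, and TFPI, the inhibitor of the tissue factor pathway, by 0.66 and 0.56. CLU rose by 0.55 without and 0.54 with DHA, and SERPINA10, the protein Z dependent inhibitor, by 0.49 and 0.57. PROCR, the protein C receptor, fell by 0.67 with DHA and had -0.19 without (not called), and the difference between these values was not called. No gene of the list was called in the pooled comparison at 6 h, with 0 at an unadjusted p under 0.05, where 0.202% of all genes were called.

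Of 23 hepatic transcription factors 22 were tested over time, and 12 were called without DHA (6 higher, 6 lower) and 9 with DHA (5 higher, 4 lower), against 48.4% and 46% of all genes. NR1H4, the bile acid receptor FXR, which is known to act on fibrinogen, kininogen and C3 genes, fell by 1.35 ± 0.067 without DHA and by 1.13 ± 0.067 with DHA on the log2 scale. Its medians were 84.1 and 81.5 CPM at 6 h and 30.7 and 37.6 CPM at 24 h, and the times did not overlap. NR1I2 (the xenobiotic receptor PXR) rose by 0.86 and 0.87, and CEBPB, of the C/EBP family, by 0.30 without and 0.47 with DHA. FOXA3 rose by 0.41 and 0.34 and PPARA by 0.26 and 0.35. ONECUT2 fell by 0.36 and 0.44, and STAT3, the mediator of interleukin-6 signals, by 0.34 and 0.45. CEBPD (0.43 without and 0.10 with DHA) and NR5A2 (-0.72 and -0.57) were called only without DHA, and the difference between the comparisons was called for neither. HNF4A, named after its values were seen, fell by 0.25 in both comparisons. None of the transcription factors was called in the pooled DHA comparisons at 24 h and 6 h, where 1.23% and 0.202% of all genes were called. An unadjusted p under 0.05 was found for 4 of them at 24 h and 2 at 6 h. The share of all genes at that limit is not given here, so these counts are not read as a result.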

How the data were processed

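Counts were taken from 1 deposited table of 36 HepG2 libraries. The authors prepared libraries with a TruSeq v2 kit, which does not mark strand, aligned reads to hg19 (GRCh37) with STAR and processed them with iRNA-seq, and the deposited values are counts per RefSeq gene without normalization. The version of STAR is not given in the sources used here. Gene coordinates and counted lengths, an other unit in the deposited table, were used for positions, with 1 added to the starts, and for RPKM. Reads of overlapping or antisense genes cannot be told apart, and molecules were not tagged, so errors cover reads.

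Groups came from the sample titles. In R 4.3.3, edgeR 4.0.16 (TMM, filterByExpr, quasi-likelihood F test) was fitted to the 18 libraries of each time for treatments and to all 36 for differences between times. The Benjamini-Hochberg method was applied to the p-values of all tested genes of a comparison. SE is the log2 fold change divided by the root of F. The fits were tested on simulated data. Replicates came from 3 independent cultures, as the study describes them.

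The members and gene lists were chosen with earlier results of these data known. Named genes were all members by role, with values for those called, or for the 3 smallest p values where none was, up to 12 per comparison over time with a log2 fold change of at least 0.5, and at most 6 called genes of each other list. The values of 1 gene of the list of other pathway genes are not reported here. Alternatives were DESeq2 1.42.0 (size factors, Wald test), no filter, no limit on average level, a replicate block, fits of only the groups compared, a thinned deep library, RPKM by span and leaving out each library. A GC-content offset (spline, 5 degrees of freedom, 17672 genes) with and without the block and a block shared by both times were chosen after seeing the data. Promoters came from RefSeq (GRCh38.p14). Figures used matplotlib 3.10.9.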

Additional observations from a re-analysis of the deposited data

How the results depend on the processing

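In 453 of 459 recomputed counts of called genes the count stayed within 1.5 times the value reported. The other 6 were all at 24 h. In all comparisons but the 2 over time the reported count was 0, and a recomputed 0 was scored as unchanged. The score also compares counts and not which genes were called. In the pooled DHA comparison 1 gene, SERPINC1, was called instead of 0 under the replicate block, the DESeq2 Wald test and the GC-content offset, and 4 (SERPINC1, FGG and FGB higher, C3 lower) under the GC-content offset with the replicate block. That last setting also called 1 gene (F11) with DHA and 2 (SERPINC1 and FGB) with DHA + PCA against Ctrl. The cause was not tested. No result reversed, and leaving out single libraries moved the counts over time from 22 to 25 without DHA and from 21 to 23 with DHA. Samples with the same replicate number had a mean correlation of residuals of 0.145 at 24 h and 0.240 at 6 h. The correlation was over 0.1 in 32 and 36 of 45 pairs, and 15 of 18 libraries at each time were most like their own number. Library names listed the same culture replicates for a given replicate number in every group. The paper describes independent cultures with replicates pooled by experiment, so the number probably marks a culture shared by the groups. The main fits did not use this number. SERPINC1 in the pooled DHA comparison at 24 h was called with the replicate block and not in the main fit. With the replicate block 28 genes were called over time without DHA and 26 with DHA, and SERPINC1 had an adjusted p of 0.0123 in the pooled DHA comparison at 24 h. With 1 block shared by both times 25 were called in each. The GC-content offset with the replicate block called 23 genes without DHA, and 18 of these were among the 23 reported. PROC, SERPINF2, C2, CFB and F13B were lost there, and C3, SERPIND1, PROS1, CPB2 and C8B were gained. With DHA it called 25, of which 21 were among those reported. With RPKM by the span from start to end, 9 of the 10 highest genes in Ctrl at 24 h were the same. Depth limits the genes of low level (KLKB1, KNG1, F13B, C1R, C8B and MASP1).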
